A study of Mus musculus with 9 samples.

Results

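Ketone bodies are a fuel that the liver makes from fatty acids and that the heart oxidises in its mitochondria. The monocarboxylate carrier of Slc16a1 takes them up across the cell membrane. The dehydrogenase of Bdh1 turns β-hydroxybutyrate into acetoacetate, the transferase of Oxct1 activates acetoacetate with coenzyme A taken from succinyl-CoA, and the thiolase of Acat1 splits the product into acetyl-CoA for the citric acid cycle. The thiolase also works in the other direction when ketone bodies are made, and in the breakdown of isoleucine. These 4 genes were selected by symbol from the 49585 rows of the deposited table, and all 4 were found there and passed the filter on low counts.

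RNA was sequenced from whole ventricles of male mice, with 3 libraries in each of 3 groups. All mice were hybrids of C57BL/6 and ICR, carried Tcf21iCre together with R26 tdTomato, a fluorescent reporter, and were given tamoxifen into the peritoneum at week 5 (2 mg per day for 5 days). Ctrl mice ate normal chow. Ctrl_HF mice had 15 weeks of a HFpEF (heart failure, preserved ejection fraction) model, namely food with 60% of its energy as fat and water with 1.0 g/L of L-NAME, which blocks nitric oxide synthases. TTg_HF mice had the same model and also carried MGTH2A. MGTH2A is known as a transgene that encodes Mef2c, Gata4, Tbx5 and Hand2, transcription factors of heart muscle, in 1 transcript, and Tcf21 is a gene of cardiac fibroblasts, so that the inducible Cre is directed to that lineage and not to cardiomyocytes. Transgenic mice on chow were not analysed here, and the labels give no age.

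Libraries held 6743109 to 9364336 counts. Levels are counts scaled by library size with TMM normalisation (CPM), and 12670 genes were tested with edgeR's quasi-likelihood test, with Benjamini-Hochberg adjustment over all of them and a threshold of 0.05. The labels number the replicates but do not say that each is a separate animal, so p-values measure the spread between these libraries. Ctrl_HF replicates 2 and 3 stood apart from the other 7 libraries on the first principal component of all genes (48.5 and 23.5, against -23.5 to 5.12). All 10 cardiomyocyte markers were abundant in every library, and the lowest value among them was 455 CPM, of Pln.

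The promoters of Bdh1 and Oxct1, whose RNA fell together in the results that follow, are shown beside that of Slc16a1, whose RNA did not pass the test. Each line gives the 250 bases before an annotated start on the plus strand, from RefSeq on GRCm38.p6, and capitals mark CpG dinucleotides. Of the 4 genes 3 had an entry, and Bdh1 had a pair of starts, whose use in these libraries was not tested. The gene coordinates given below are from GENCODE, and the Oxct1 window and the first Bdh1 window end inside the genes as placed there.
Bdh1, first start, chr16:31422047-31422296: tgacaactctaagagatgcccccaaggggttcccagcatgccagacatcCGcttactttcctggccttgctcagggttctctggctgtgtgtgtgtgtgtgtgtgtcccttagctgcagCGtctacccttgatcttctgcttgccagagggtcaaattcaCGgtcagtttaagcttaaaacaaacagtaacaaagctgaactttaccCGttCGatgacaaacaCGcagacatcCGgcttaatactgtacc
Bdh1, second start, chr16:31428503-31428752: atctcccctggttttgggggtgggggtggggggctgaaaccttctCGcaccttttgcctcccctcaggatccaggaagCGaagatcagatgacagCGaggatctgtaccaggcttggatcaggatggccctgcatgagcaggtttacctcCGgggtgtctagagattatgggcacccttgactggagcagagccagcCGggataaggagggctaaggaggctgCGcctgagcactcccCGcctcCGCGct
Oxct1, chr15:4026178-4026427: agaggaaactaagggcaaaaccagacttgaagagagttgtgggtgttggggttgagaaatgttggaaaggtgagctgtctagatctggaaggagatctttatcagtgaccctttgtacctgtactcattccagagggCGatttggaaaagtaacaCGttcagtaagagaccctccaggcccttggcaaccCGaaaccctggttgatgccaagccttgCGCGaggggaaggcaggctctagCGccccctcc
Slc16a1, chr3:104638414-104638663: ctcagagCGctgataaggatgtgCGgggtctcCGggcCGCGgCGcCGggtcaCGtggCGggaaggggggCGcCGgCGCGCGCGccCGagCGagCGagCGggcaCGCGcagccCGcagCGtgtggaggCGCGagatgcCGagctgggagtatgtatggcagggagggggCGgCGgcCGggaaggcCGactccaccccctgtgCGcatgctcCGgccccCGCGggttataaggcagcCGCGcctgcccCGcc
The Slc16a1 window had 37 CpG and 76.4% G and C, a G and C content above that of 97% of the 32851 windows of the same length. The windows of Bdh1 held 7 and 9 CpG and that of Oxct1 held 6, where the median window had 6. Motifs were searched on both strands, namely TCAAGGTCA, bound by estrogen-related receptors, the PPAR element (AGGTCA repeated after 1 base of any kind) and the E-box CACGTG. The first was in 0.387% and the second in 0.0335% of all windows, and neither was in these 4. The E-box was in 6.02% of all windows and in that of Slc16a1, where it begins 200 bases before the start. The first motif holds the letters AGGTCA of the second.

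Bdh1 RNA was lower in both groups on the model. Bdh1 (ENSMUSG00000046598, chr16:31422280-31458901 on mm10, plus strand) was at 268, 333 and 305 CPM in Ctrl replicates 1, 2 and 3. It was at 137, 149.9 and 148 CPM in Ctrl_HF and at 139, 159.9 and 182 CPM in TTg_HF. Every library of both model groups lay below every Ctrl library. In Ctrl_HF against Ctrl the level went from 302 ± 32.3 to 145 ± 6.7 CPM (mean ± SD, n = 3), and on the log2 scale the change was -1.06 with an SE of 0.11 (adjusted p = 0.00286 by edgeR). This was the 162nd most negative of 12670 fold changes. In TTg_HF, at 160.2 ± 21.5 CPM, the log2 fold change against Ctrl was -0.92 (SE 0.11, adjusted p = 0.00475 by edgeR). TTg_HF and Ctrl_HF overlapped, with a difference of 0.14 on the log2 scale, a 95% interval of -0.10 to 0.39 and an adjusted p of 0.594 by edgeR.

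Oxct1 RNA, for the enzyme that commits acetoacetate to oxidation, was lower in the same groups. Its SD was 8.58 CPM in Ctrl, 39.6 in Ctrl_HF and 97.3 in TTg_HF (n = 3). Oxct1 (ENSMUSG00000022186, chr15:4026383-4155344, plus strand) was at 1496, 1488 and 1479 CPM in the Ctrl libraries. It was at 926, 932 and 997 CPM in Ctrl_HF and at 811, 1000.5 and 945 CPM in TTg_HF. The lowest Ctrl library was thus 478 CPM above the highest library of the model groups. Oxct1 fell in Ctrl_HF by 0.64 on the log2 scale (SE 0.08, adjusted p = 0.00484 by edgeR) and in TTg_HF against Ctrl by 0.69 (SE 0.08, adjusted p = 0.0031 by edgeR). Between TTg_HF and Ctrl_HF the difference was -0.05 (95% interval -0.22 to 0.12, adjusted p = 0.815 by edgeR), and the libraries overlapped.

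Oxct1 shares 467 exon bases with BC037032 on the opposite strand, and no source used here says whether the counting used strand. BC037032 was at 2.78 to 6.81 CPM. That level cannot show how many of its reads would be counted for Oxct1 if strand was not used. Gm15743, which is antisense to Bdh1 and shares 533 exon bases with it, had 1 count in all 9 libraries together. Ventricle is a mixture of cells, so fewer cells of a type and less RNA per cell cannot be told apart. The 10 cardiomyocyte markers summed to 88261 to 90153 CPM in Ctrl_HF, 85121 to 86701 in TTg_HF and 93052 to 104263 in Ctrl, with 10 of 10 fold changes below 0 and a median of -0.26 in Ctrl_HF against Ctrl. Of them only Myoz2 passed (adjusted p = 0.0419 by edgeR), while 3 passed with library totals alone. In DESeq2 5 passed, and 6 had an unadjusted p under 0.05 by edgeR. Of all 12670 tested genes, edgeR called 1.82% lower (230 genes with library totals alone) and DESeq2 called 381 lower. An unadjusted p under 0.05 was found for 20.6% of all tested genes. Over all 12670 genes in TTg_HF against Ctrl, edgeR called 0.182% lower, DESeq2 called 79 lower, and 9.41% had an unadjusted p under 0.05. In that comparison 10 of 10 markers were also below 0 (median -0.24), where 50.3% of all tested genes were, beside 48.5% in Ctrl_HF against Ctrl. Of these markers 0 were called by edgeR or DESeq2, and 8 had an unadjusted p under 0.05. The part of this shift in the fall of Bdh1 and Oxct1 was not tested. In Ctrl_HF against Ctrl the lowest marker value was -0.55, of the phospholamban gene Pln, beside the list median of -0.26. Pln was at -0.18 in TTg_HF against Ctrl. In TTg_HF against Ctrl_HF, where 50.1% of all genes were below 0, 6 of the 10 markers were above 0 and 4 below (median 0.04). Of the 10, 3 had an unadjusted p under 0.05, beside 14.3% of all tested genes. EdgeR and DESeq2 called 0 of the 10 there, where edgeR called 0.0868% of all tested genes. Ttn, a large part of the sums, had a mean of 39869 CPM in Ctrl_HF and 35984 in TTg_HF.

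**Figure D1:**
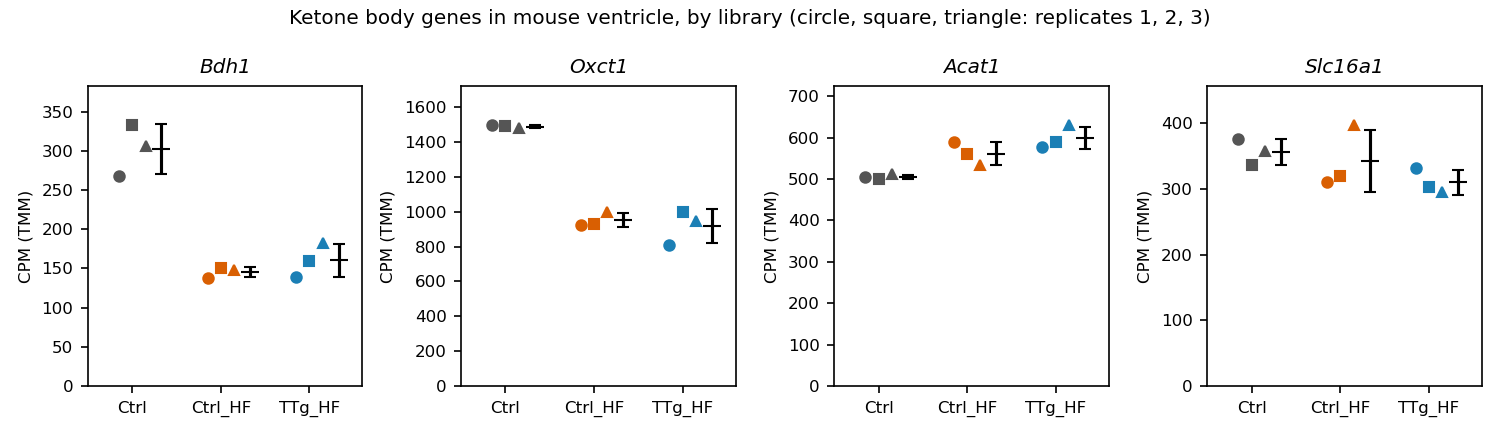
Levels of Bdh1, Oxct1, Acat1 and Slc16a1 in CPM (y axis from 0) in Ctrl, Ctrl_HF and TTg_HF, where circles, squares and triangles are replicates 1, 2 and 3 and the bar beside them is the mean with its SD (n = 3). The 6 model libraries lie below the 3 Ctrl libraries for Bdh1 and Oxct1, while those of Acat1 lie above them and those of Slc16a1 partly overlap them.

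Acat1 RNA did not fall with the other enzymes. Acat1 (ENSMUSG00000032047, chr9:53580522-53610382, minus strand) was at 505, 499 and 511 CPM in Ctrl, at 589.9, 559.9 and 534 CPM in Ctrl_HF and at 578, 591 and 630.1 CPM in TTg_HF. All 6 model libraries lay above all 3 Ctrl libraries. The log2 fold change was 0.15 in Ctrl_HF against Ctrl (95% interval 0.01 to 0.30, unadjusted p = 0.0413, adjusted p = 0.221 by edgeR). In TTg_HF against Ctrl it was 0.25 (95% interval 0.10 to 0.39, unadjusted p = 0.00322, adjusted p = 0.175 by edgeR), so neither passed. TTg_HF and Ctrl_HF differed by 0.09 (95% interval -0.05 to 0.24, adjusted p = 0.545 by edgeR).

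Slc16a1 RNA, for the carrier of ketone bodies, lactate and pyruvate, passed in none of the comparisons. Slc16a1 (ENSMUSG00000032902, chr3:104638668-104658462, plus strand) was at 376, 336 and 358 CPM in Ctrl. The Ctrl_HF libraries held 311, 320.1 and 397 CPM, with the highest of all 9 values in replicate 3, and those of TTg_HF held 332, 303 and 296 CPM. Ctrl_HF overlapped Ctrl, with a log2 fold change of -0.06 (95% interval -0.28 to 0.16, adjusted p = 0.791 by edgeR). TTg_HF lay below Ctrl without overlap, at -0.20 (95% interval -0.42 to 0.02, adjusted p = 0.589 by edgeR). TTg_HF against Ctrl_HF gave -0.14 (95% interval -0.36 to 0.08, adjusted p = 0.544 by edgeR).

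Of the 4 genes, 2 passed in Ctrl_HF against Ctrl, both lower, where 1.82% of all tested genes passed in that direction and 1.79% in the other. The same 2 genes, Bdh1 and Oxct1, passed in TTg_HF against Ctrl, where 0.182% of all tested genes were called lower and 0.284% higher. None of the 4 passed in TTg_HF against Ctrl_HF by edgeR, none had an unadjusted p under 0.05 there and none passed in DESeq2, and edgeR called 0.0868% of all tested genes in that comparison (0.0395% lower and 0.0474% higher). That share rests on 11 genes, and the number was 339 in DESeq2 and 665 by edgeR without Ctrl_HF replicate 1. The comparisons against Ctrl share the Ctrl libraries. Libraries did not overlap, in the lower direction, for 11.8% of all tested genes in Ctrl_HF against Ctrl and for 9.48% in TTg_HF against Ctrl. In the higher direction, which Acat1 showed, these shares were 11.5% and 9.23%. In TTg_HF against Ctrl_HF, where all 4 genes overlapped, they were 9.53% lower and 9.31% higher. An unadjusted p under 0.05 was found for 20.6% of all tested genes in Ctrl_HF against Ctrl, 14.3% in TTg_HF against Ctrl_HF and 9.41% in TTg_HF against Ctrl.

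Per length, Oxct1 was the most abundant of the 4 in every group. Levels were divided by the union of exons in the GENCODE vM21 basic set, which is 3527 bases for Oxct1, 3405 for Acat1, 4426 for Slc16a1 and 3648 for Bdh1. In Ctrl, Oxct1 was at 422 ± 2.43 CPM per kb and Acat1 at 148 ± 1.72 (n = 3). Bdh1, at 82.8 ± 8.85 CPM per kb, and Slc16a1, at 80.6 ± 4.54, did not differ in level beyond their spread. In Ctrl_HF the levels were 269.8 ± 11.2 CPM per kb for Oxct1, 165 ± 8.19 for Acat1, 77.5 ± 10.7 for Slc16a1 and 39.8 ± 1.84 for Bdh1. In TTg_HF they were 261 ± 27.6, 176 ± 8.04, 70.2 ± 4.33 and 43.9 ± 5.89 CPM per kb in the same order, so that Bdh1 was the lowest of the 4 in both model groups, beyond the spread.

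**Figure D2:**
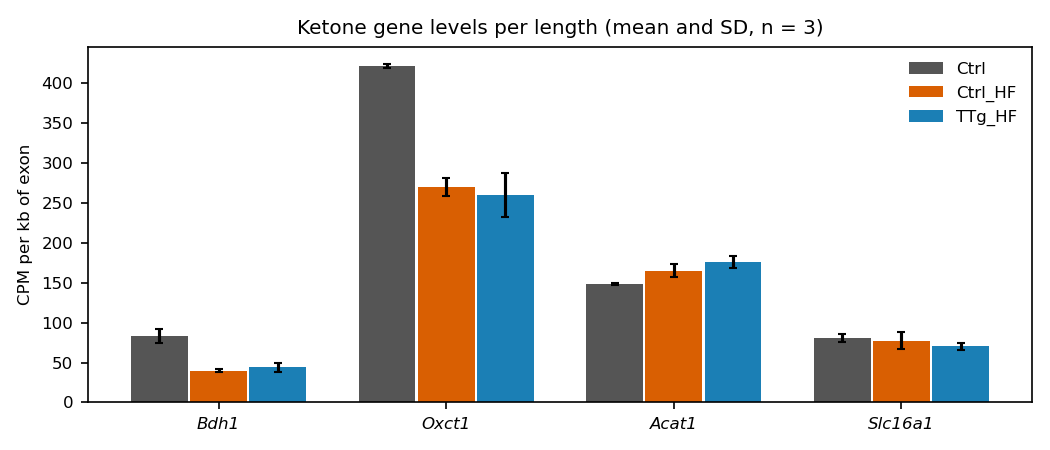
Mean level per length (CPM per kb of exon, y axis from 0) of the 4 genes in the 3 groups, with SD as error bars (n = 3). Oxct1 is highest in each group, and Bdh1 is lowest in Ctrl_HF and TTg_HF.

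A ratio of counts within 1 library does not depend on how that library was scaled. The log2 ratio of Bdh1 to Oxct1 counts was -2.48, -2.16 and -2.28 in Ctrl, -2.75, -2.64 and -2.75 in Ctrl_HF, and -2.55, -2.65 and -2.38 in TTg_HF. Every Ctrl_HF library lay below every Ctrl library, with a difference between means of -0.41 (exact permutation p = 0.1, two-sided, the smallest that 3 against 3 allows, and 0.18 adjusted over 9 such tests). TTg_HF overlapped both other groups (a difference of 0.19 from Ctrl_HF and of -0.22 from Ctrl, exact permutation p = 0.2 in each). The ratio of Acat1 to Oxct1 counts was 0.336 to 0.346 in Ctrl, against 0.536 to 0.637 in Ctrl_HF and 0.590 to 0.712 in TTg_HF. Neither model group overlapped Ctrl (exact permutation p = 0.1 in each, 0.18 adjusted). The log2 ratio of Slc16a1 to Oxct1 was also higher without overlap, by 0.58 in Ctrl_HF and 0.50 in TTg_HF (exact permutation p = 0.1 in each). Oxct1 is the divisor and was lower in both model groups, so any gene that did not fall gives a higher ratio.

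Hmgcs1, the cytosolic synthase of the sterol route, had a mean of 52.9 CPM in Ctrl, 47.6 in Ctrl_HF and 52.1 in TTg_HF. Acat2, the cytosolic thiolase, had means of 4.45, 3.2 and 4.97 CPM in the same order. Neither passed in any comparison by edgeR (adjusted p of 0.388 or above for Ctrl_HF against Ctrl). Hmgcll1, Bdh2 and Acat3 were under the filter, at 0.59 CPM at most in any library.

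Aacs, the cytosolic ligase that spends acetoacetate on lipid synthesis, was at 5.93, 6.01 and 5.63 CPM in Ctrl, 9.04, 9.5 and 9.15 in Ctrl_HF and 5.86, 5.59 and 6.68 in TTg_HF. Ctrl_HF lay above both other groups without overlap. It rose in Ctrl_HF against Ctrl by 0.65 (SE 0.16, adjusted p = 0.0469 by edgeR), a call that held in 4 of 18 alternative settings (adjusted p 0.0431 to 0.149) and that was lost without any 1 of 8 libraries, all but Ctrl_HF replicate 1. In TTg_HF against Ctrl_HF it was at -0.61 (SE 0.16, unadjusted p = 0.00258, adjusted p = 0.136 by edgeR). The paralogs of Oxct1 that are known from testis, Oxct2a and Oxct2b, had no count in any library.

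Among the other monocarboxylate carriers Slc16a7, which encodes MCT2, a carrier of higher affinity than MCT1, was at 24.5, 17.3 and 11.6 CPM in Ctrl. It fell to 7.94, 7.17 and 8.11 CPM in Ctrl_HF (-1.20, SE 0.24, adjusted p = 0.0249 by edgeR), and no Ctrl_HF library reached the lowest Ctrl library. The call was lost in 5 of 18 alternatives, among them without Ctrl replicates 1 and 2 (adjusted p = 0.0584 and 0.0888 by edgeR) and Ctrl_HF replicates 2 and 3 (0.0748 and 0.0805). In TTg_HF Slc16a7 was at 9.97, 10.4 and 8.21 CPM, also below every Ctrl library. Against Ctrl the change was -0.90 (unadjusted p = 0.00283, adjusted p = 0.167 by edgeR), where 9.48% of all tested genes lay lower without overlap. The exons of Slc16a7 share 179 bases with the opposite-strand gene Gm47862. Bsg, the chaperone that brings MCT1 to the membrane, had 873 ± 59.4 CPM in Ctrl, 847 ± 34.0 in Ctrl_HF and 949.7 ± 47.1 in TTg_HF (n = 3), and did not pass.

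The carriers Slc16a3 and Slc16a6 and the chaperone Emb did not pass either, with Ctrl_HF against Ctrl values of 0.84, 0.17 and 1.46 (adjusted p = 0.403, 0.699 and 0.097 by edgeR). Slc16a3, which encodes MCT4, was at 16.7 CPM in Ctrl_HF replicate 2 and at 2.46 to 7.42 CPM in the other 8 libraries. The receptors for ketone bodies, lactate and short-chain fatty acids were under the filter: Hcar1 reached 1.16 CPM, Hcar2 0.232 CPM, and Ffar3 had no count. Of 19 other ketone genes 8 were tested, of which Aacs rose and Slc16a7 fell in Ctrl_HF against Ctrl, against 3.61% of all genes called in either direction. None of the 8 passed in TTg_HF against Ctrl by edgeR or DESeq2, where edgeR called 0.466% of all genes. An unadjusted p under 0.05 was found for 1 of the 8, beside 9.41% of all genes. In TTg_HF against Ctrl_HF the number that passed was also 0 of 8 by edgeR and by DESeq2. There 4 of 8 had an unadjusted p under 0.05, beside 14.3% of all genes. The median fold change of the 8 was 0.06 in Ctrl_HF against Ctrl, beside 0.01 over all genes.

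**Figure D3:**
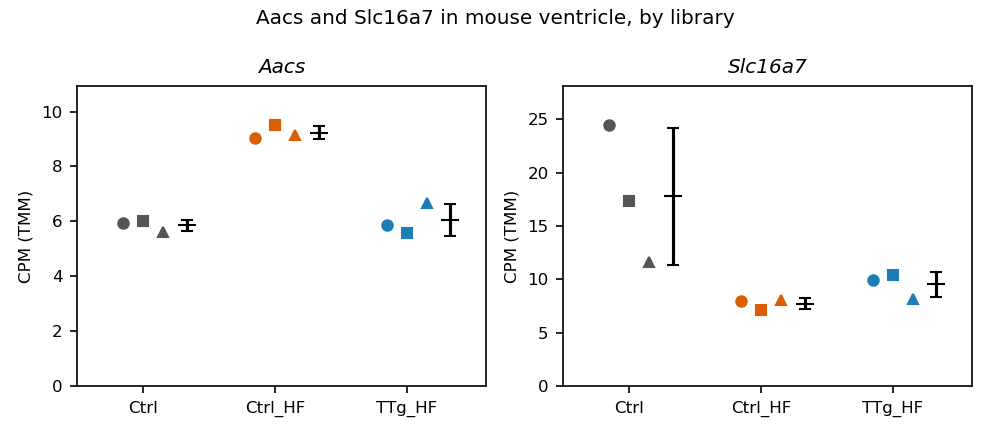
Levels of Aacs and Slc16a7 in CPM (y axes from 0) by library in Ctrl, Ctrl_HF and TTg_HF, with mean and SD beside the points (n = 3). Only the Ctrl_HF libraries lie above Ctrl without overlap for Aacs, and the 3 Ctrl libraries of Slc16a7 are spread from 11.6 to 24.5 CPM.

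**Figure D4:**
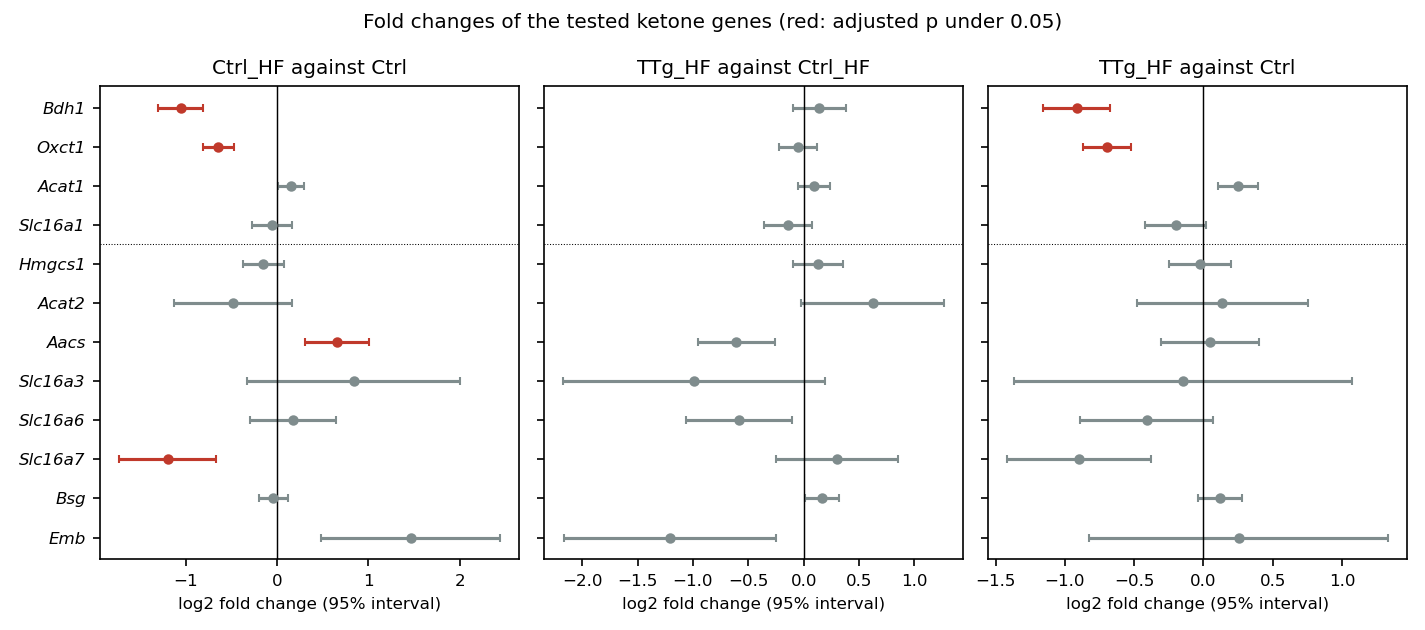
Log2 fold changes with 95% intervals (x axis, different scale in each panel) of the 4 genes, above the dotted line, and of 8 other tested ketone genes in the 3 comparisons, with red marking an adjusted p under 0.05. Bdh1 and Oxct1 are red and below 0 in both comparisons against Ctrl, and no gene is red in TTg_HF against Ctrl_HF.

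The citric acid cycle takes up the acetyl-CoA and supplies the succinyl-CoA that Oxct1 uses. In Ctrl_HF against Ctrl all 17 of its 17 genes had a fold change below 0, where 48.5% of all tested genes did, with a median of -0.15 and a range of -0.28 to -0.06, beside a median of -0.26 for the 10 cardiomyocyte markers. Of all 12670 tested genes, 20.6% had an unadjusted p under 0.05 in that comparison, and DESeq2 called 381 lower. Of the 17 none passed by edgeR, while 9 had such a p and 3 passed in DESeq2. The lowest p was that of Idh3a, a subunit of isocitrate dehydrogenase (638 CPM in Ctrl and 539 in Ctrl_HF, -0.24, adjusted p = 0.0657 by edgeR). In TTg_HF against Ctrl, where 50.3% of all tested genes were below 0, the median of the 17 was -0.07. There 17 of 17 were below 0 under TMM scaling and 14 of 17 when library totals alone were used. In TTg_HF against Ctrl_HF, where 50.1% of all tested genes were below 0, 16 of 17 were above 0, with a median of 0.07. None was called by edgeR or DESeq2 in either of these comparisons. An unadjusted p under 0.05 was found for 4 and 1 of the 17, beside 9.41% and 14.3% of all tested genes.

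Among the genes that make and move the other cargo of the Slc16a1 carrier, none of 5 passed by edgeR or DESeq2 in any comparison. In Ctrl_HF against Ctrl, where 20.6% of all tested genes had an unadjusted p under 0.05, 1 of the 5 had such a p. Of the 5, 4 were below 0, with a median of -0.13. The gene with such a p was Mpc1, a subunit of the mitochondrial pyruvate carrier, at 142 CPM in Ctrl and 119 in Ctrl_HF (-0.25, adjusted p = 0.16 by edgeR). In TTg_HF against Ctrl, where 50.3% of all tested genes were below 0, all 5 were below 0 (median -0.14). An unadjusted p under 0.05 was found there for 2 of the 5, beside 9.41% of all tested genes. In TTg_HF against Ctrl_HF 3 of the 5 were below 0, and 1 had such a p, beside 14.3% of all tested genes. Of 4 other tested thiolases (Acaa1a, Acaa2, Hadhb and Scp2), Acaa2, the mitochondrial thiolase of fatty acid oxidation, had a mean of 726 CPM in Ctrl, 893 in Ctrl_HF and 1006 in TTg_HF. It rose in TTg_HF against Ctrl (0.47, SE 0.08, adjusted p = 0.0209 by edgeR) and missed the threshold in Ctrl_HF against Ctrl (0.30, SE 0.08, adjusted p = 0.0564 by edgeR), where it passed in 3 of 18 alternatives, namely DESeq2 (0.0234), no filter (0.0478) and without Ctrl replicate 1 (0.0281). The call in TTg_HF against Ctrl was lost in 5 of 18 alternatives, each of which left out 1 library (Ctrl replicates 2 and 3 and TTg_HF replicates 1, 2 and 3, adjusted p 0.0614 to 0.146 by edgeR).

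**Figure D5:**
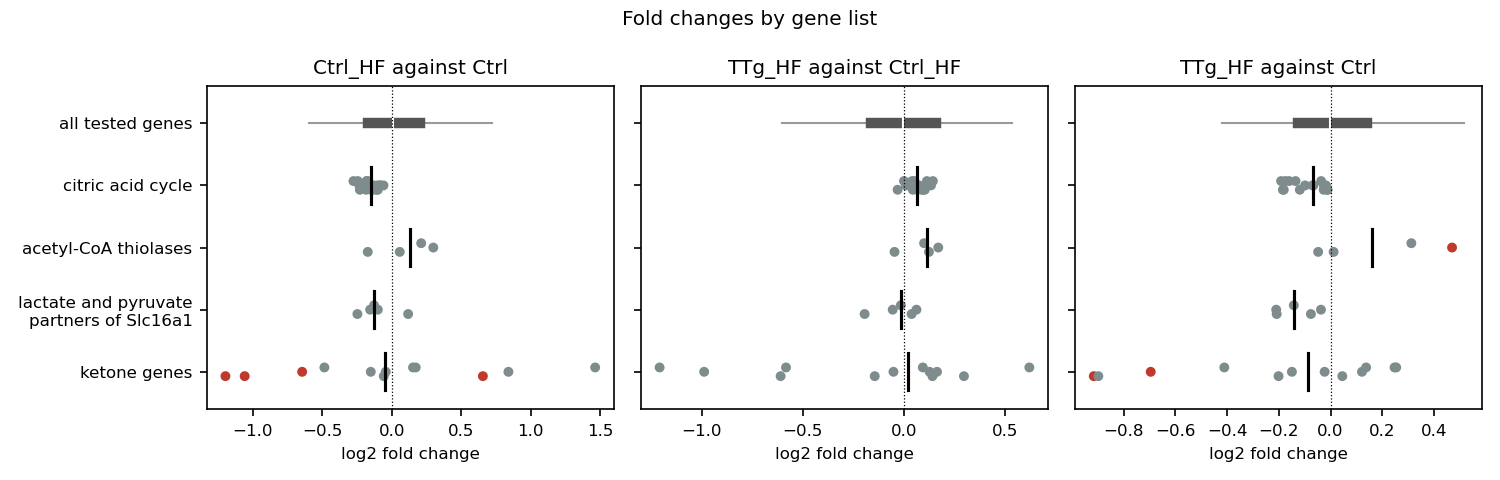
Log2 fold changes (x axis, different scale in each panel) of all tested genes, drawn as the middle 50% (thick bar) and the 5th to 95th percentile (thin line), and of single genes in 4 lists, with the list median as a vertical line and red for an adjusted p under 0.05. The citric acid cycle genes lie close together between -0.28 and -0.06 in Ctrl_HF against Ctrl, whereas ketone genes run from -1.20 to 1.46.

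The genes most like each of the 4 across the 9 libraries were found by the root mean square difference between log2 CPM profiles, each centred on its own mean, among 11982 genes. Among the nearest to Bdh1 were Gcdh (a difference of 0.137 on the log2 scale), which encodes glutaryl-CoA dehydrogenase of lysine breakdown, and the glutathione transferase gene Gstk1 (0.156). The median difference from Bdh1 over all genes was 0.528. Nearest to Oxct1 were Bckdhb (0.0964), a subunit of branched-chain ketoacid dehydrogenase, Acadsb (0.103), an acyl-CoA dehydrogenase of isoleucine breakdown, and again Gcdh (0.104), beside a median of 0.390. Oxct1 and Bdh1 differed from each other by 0.196, while Acat1 differed from Oxct1 by 0.425. In Ctrl_HF against Ctrl the log2 fold changes of these neighbours were -0.79 for Gcdh, -0.80 for Gstk1, -0.75 for Bckdhb and -0.65 for Acadsb. The neighbours were picked by likeness over these same libraries, so fold changes near those of Bdh1 and Oxct1 follow from the choice.

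Neighbours of the other 2 genes lay closer in absolute difference, but the median difference over all genes was smaller for these 2 as well. Nearest to Acat1 were the oxysterol receptor gene Nr1h2 (0.0434), Itpripl1 (0.0457) and the prohibitin gene Phb2 (0.0465), with a median of 0.232 over all genes. Nearest to Slc16a1 were Naa30 (0.0600), a catalytic subunit of an N-terminal acetyltransferase, Trmt1l (0.0609) and the deubiquitinase gene Cyld (0.0623), with a median of 0.245. These distances describe 9 libraries that share a sequencing depth of the same order, and no test was made of them.

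Among markers of other cells, 2 of 7 macrophage markers rose in Ctrl_HF against Ctrl, Mrc1 (0.84) and C1qb (0.62), with adjusted p of 0.0068 and 0.0221 by edgeR. Mrc1 also rose in TTg_HF against Ctrl (0.61, adjusted p = 0.0455 by edgeR). The macrophage markers summed to 219 to 278 CPM in Ctrl_HF and 227 to 250.2 in TTg_HF, against 156 to 178 in Ctrl. The 8 fibroblast markers summed to 945 to 1087 CPM in Ctrl, 1073 to 1438 in Ctrl_HF, which overlapped Ctrl, and 1177 to 1408 in TTg_HF, which did not. All 8 had fold changes above 0 in both comparisons against Ctrl (medians 0.37 and 0.35). Of all tested genes, 48.5% and 50.3% were below 0 there. EdgeR called 0 of the 8 and DESeq2 called 2 in each, with 5 and 4 at an unadjusted p under 0.05. Over all 12670 genes, edgeR called 1.79% and 0.284% higher in these comparisons, and DESeq2 called 460 and 103 higher. An unadjusted p under 0.05, in either direction, was found for 20.6% and 9.41% of all tested genes. The 6 erythroid markers summed to 429 to 658 CPM in Ctrl, 778 to 946 in Ctrl_HF and 191 to 837 in TTg_HF. The 7 endothelial markers summed to 938 to 1214, 1124 to 1337 and 1108 to 1367 CPM in the same order of groups, and the 6 smooth muscle and pericyte markers to 758 to 878, 772 to 812 and 722 to 860 CPM, with overlap in each. In both comparisons against Ctrl, edgeR and DESeq2 called 0 of the erythroid, endothelial and smooth muscle markers. At an unadjusted p under 0.05 these lists held 1, 2 and 1 genes in Ctrl_HF against Ctrl and 0, 1 and 2 in TTg_HF against Ctrl. The 6 adipocyte markers summed to 1.61 to 4.27 CPM in Ctrl, 0.232 to 0.822 in Ctrl_HF and 0.293 to 0.821 in TTg_HF, and the 6 hepatocyte markers to at most 0.811 CPM in any library. The part of these in the changes of the ketone genes was not tested.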

How the data were processed

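The authors deposited 1 table for 9 libraries with 3 columns per library, per the file headers. The first holds whole-number counts per gene symbol. The second is a signal that the authors normalized, which by test on the file is the count times 1 factor per library. The third is the authors' transformed value, log2 of that signal plus 1 within 0.005. Per the labels' protocols, ribosomal RNA was depleted and libraries were directional. Reads were placed on mm10, which the submitters' processing notes name, while the aligner, annotation, counting program and use of strand were "not given in the sources used here". Among the rows 26 had dates in place of symbols, and they were kept as deposited.

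Counts were filtered with filterByExpr (minimum count 10, minimum total 15) and fitted with edgeR 4.0.16 in R 4.3.3, with TMM normalisation, robust quasi-likelihood estimation and group as the only term, over all 9 libraries. Intervals are at 95% and SE was taken as the size of the log2 change over the root of its F statistic. DESeq2 1.42.0 and other settings were alternatives. The fitting was tested on simulated data, drawn for each gene alone from its fitted spread, which cannot show how far single libraries move the calls. Coordinates and exon lengths are from GENCODE vM21 (GRCm38). Ratios were tested with scipy 1.17.1. The members, gene lists and tests were chosen with earlier results of these data known. Genes named are the 4 members, list members past the threshold or of lowest p in each list in Ctrl_HF against Ctrl, and the 3 nearest profiles of each member (mean of at least 1 CPM, no predicted or clone-based name); other genes with values were chosen after those were seen. Some genes that this rule names are not reported here, and the list counts leave them out. The 95% intervals of fold changes are from the quasi-likelihood fit and include the spread between libraries. A limit on a count of 0 (3 counts) covers counting error only.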

Additional observations from a re-analysis of the deposited data

How the results depend on the processing

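Bdh1 and Oxct1 passed against Ctrl, in Ctrl_HF and in TTg_HF, under all 18 alternatives (DESeq2, other scalings and filters, pairs of groups alone, the replicate block, no robust estimation and leaving out each library). Without 1 library the Bdh1 log2 fold change ran from -1.13 to -0.98 in Ctrl_HF and -1.02 to -0.82 in TTg_HF, and that of Oxct1 from -0.68 to -0.62 and -0.76 to -0.61. Acat1 and Slc16a1 passed in no comparison under any of the 18, nor did any of the 4 genes in TTg_HF against Ctrl_HF. Among these member values the sign turned only without TTg_HF replicate 1 for Oxct1 in TTg_HF against Ctrl_HF (leave-one-out range -0.12 to 0.030) and without Ctrl_HF replicate 1 for Slc16a1 in Ctrl_HF against Ctrl (-0.18 to 0.010). The cause was not tested.

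The number of all genes called in Ctrl_HF against Ctrl was 458, 841 in DESeq2, 126 in a fit of these 6 libraries alone and 85 to 1122 without 1 library. In TTg_HF against Ctrl_HF it was 11, 339 in DESeq2, 109 with no filter, 0 with the 6 libraries alone (1624 at an unadjusted p under 0.05) and 2 to 665 without 1 library. In TTg_HF against Ctrl it was 59, 182 in DESeq2, 118 with no filter, 117 with the 6 libraries alone and 24 to 114 without 1 library. Of other ketone genes 2 were called in Ctrl_HF against Ctrl, and 1 in DESeq2, with library totals alone, with the authors' factors, with no filter and with the replicate block. With the 6 libraries alone the count was 0 by edgeR (2150 of all genes at an unadjusted p under 0.05), and without 1 library it was 0 to 2. Libraries with the same replicate number did not deviate together in all pairs (correlations of deviations from -0.164 to 0.197), so the number was not taken as a pairing. With the replicate block the fold changes against Ctrl were -1.05 and -0.92 for Bdh1 and -0.65 and -0.70 for Oxct1, and of the ketone genes reported Aacs alone lost its call (adjusted p = 0.078 by edgeR). The authors' factors were an alternative chosen after seeing the data. With 3 libraries a group, the printed intervals give the precision of each difference.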
